A study of Mus musculus with 6 samples.

Results

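Intestinal Isx and 8 genes that handle retinoids or answer to them are described here through the chromatin peaks nearest to them. The 9 genes were Isx, Bco1, Scarb1, Rbp2, Lrat, Aldh1a1, Rara, Rarb and Rxra. A peak was taken when its centre lay within 50 kb of an end of one of these genes and nearer to it than to any other protein-coding gene, which gave 97 of the 90823 consensus peaks (72404 had a gene by the same rule). Isx was chosen by its measured value: the peak over its start was 1.83-fold higher with arachidonic acid than with vehicle. That contrast is therefore given for Isx as a description without a test. The other genes were added as its pathway. Isx had 10 peaks, Bco1 9, Scarb1 21, Rbp2 9, Lrat 3, Aldh1a1 9, Rara 7, Rarb 8 and Rxra 21. Of the 97 peaks 96 held enough counts to be tested, and 1 Aldh1a1 peak did not. At the edge of the distance limit, a peak 49658 bp from Rxra was taken, with 5.65 CPM (a peak's count scaled to the size of its library, with TMM factors) with AA, 4.91 with PGE2 and 8.40 with Vehicle, and one 51317 bp away was not, with 3.41, 3.49 and 6.23 CPM in the same order.

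Accessible chromatin was mapped by ATAC-seq (a transposase cuts and tags open DNA) in mouse intestinal organoids, which are epithelial cultures grown from crypts. The groups were AA (25 µM arachidonic acid, the fatty acid from which cells make prostaglandins), PGE2 (50 nM prostaglandin E2) and Vehicle, each for 3 days and each with 2 libraries. The design text names a dimethyl PGE2 where the protocol names PGE2, so the group keeps its label. All groups shared a Matrigel culture with EGF, Noggin, R-spondin, the GSK3 inhibitor CHIR-99021, the ROCK inhibitor Y-27632, N-acetyl-L-cysteine and the B27 and N2 supplements. The strain, age and gut segment of the mice were not given in the sources used here. Epithelial cells were sorted before the Omni-ATAC reaction. The labels do not say whether the 2 libraries of a group came from separate cultures, so p-values measure only the spread between libraries, which may be technical. AA and PGE2 were given at different doses, so their values stand side by side as 2 treatments and not as a comparison at matched dose.

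In the intestine, provitamin A carotenoids enter enterocytes through SCARB1, BCO1 cleaves beta-carotene to retinal, and retinal is reduced to retinol, bound by RBP2 and esterified by LRAT for export or storage. ALDH1A1 oxidises retinal to retinoic acid, the ligand of the RAR receptors, which bind DNA as partners of RXR. ISX is an intestine-specific homeodomain repressor that retinoic acid induces and that lowers Bco1 and Scarb1 expression, which closes a feedback loop on vitamin A uptake.

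The promoters of 5 of these genes are printed to show the letters at their start sites, where the peaks of Isx, Rbp2 and Lrat were called in at least 1 comparison and those of Bco1 and Rarb in none. Each is the 250 bases before the annotated start site (RefSeq, GRCm38.p6), written 5′ to 3′ on the gene's strand. They are Isx (chr8:74872924-74873173, plus strand), Bco1 (chr8:117095615-117095864, plus), Rbp2 (chr9:98490287-98490536, plus), Lrat (chr3:82903975-82904224, minus) and Rarb (chr14:16575477-16575726, minus). Each lay wholly inside 1 consensus peak. Capitals mark nuclear receptor half-sites (AGGTCA on either strand), a paired repeat of them (exact, or degenerate in Rarb), and the TATA box TATAAA on either strand.
Isx: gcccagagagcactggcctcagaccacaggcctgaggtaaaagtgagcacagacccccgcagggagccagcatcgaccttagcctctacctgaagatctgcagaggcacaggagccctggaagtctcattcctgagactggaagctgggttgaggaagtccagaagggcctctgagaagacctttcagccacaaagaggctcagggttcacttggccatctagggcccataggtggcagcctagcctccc
Bco1: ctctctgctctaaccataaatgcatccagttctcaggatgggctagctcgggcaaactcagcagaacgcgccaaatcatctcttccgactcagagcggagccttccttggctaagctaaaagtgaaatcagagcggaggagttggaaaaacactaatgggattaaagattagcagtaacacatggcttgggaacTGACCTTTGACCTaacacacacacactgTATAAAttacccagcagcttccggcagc
Rbp2: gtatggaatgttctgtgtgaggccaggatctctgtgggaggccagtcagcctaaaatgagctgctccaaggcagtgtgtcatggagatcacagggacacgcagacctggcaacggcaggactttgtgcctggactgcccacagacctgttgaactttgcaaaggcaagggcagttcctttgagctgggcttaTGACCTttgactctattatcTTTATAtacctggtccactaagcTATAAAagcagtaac
Lrat: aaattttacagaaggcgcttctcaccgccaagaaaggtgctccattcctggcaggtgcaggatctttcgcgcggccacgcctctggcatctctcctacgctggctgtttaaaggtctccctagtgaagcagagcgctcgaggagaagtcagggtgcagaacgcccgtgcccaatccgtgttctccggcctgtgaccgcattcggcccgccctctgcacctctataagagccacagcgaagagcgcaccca
Rarb: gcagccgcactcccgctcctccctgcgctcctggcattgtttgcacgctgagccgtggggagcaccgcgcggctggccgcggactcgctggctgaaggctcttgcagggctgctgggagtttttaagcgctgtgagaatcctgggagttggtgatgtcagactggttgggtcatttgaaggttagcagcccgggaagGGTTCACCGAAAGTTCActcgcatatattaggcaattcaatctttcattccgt
The Bco1 promoter held TGACCTTTGACCT at bases -56 to -44, which is DR1 (AGGTCANAGGTCA, 2 half-sites 1 base apart) on the reverse strand, and TATAAA from -28. The exact DR1 was found in 11 of 32851 promoters of the same length (0.0335%). The Rbp2 promoter held 1 half-site at -58 to -53 and TATA matches at -38 and -15. The Rarb promoter held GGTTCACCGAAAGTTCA at -53 to -37, a degenerate DR5 (repeat with a 5-base gap); Rarb is a classic retinoic acid target and DR5 is the spacing its receptors prefer. Isx and Lrat held no match to any motif searched, which says only that these letters were not in this window.

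The motifs searched on both strands were the half-site (in 14.0% of all promoters), DR1 and its degenerate form (0.164%), degenerate DR2 (0.174%) and DR5 (0.0883%), the homeodomain core TAATTA (4.84%), TTTATG (10.8%), the AP-1 site TGANTCA (6.75%), the CRE TGACGTCA (1.55%) and TATAAA (12.4%). Every DR1 match also counts as 2 half-sites and as a degenerate DR1. Of the 9 genes 8 matched the promoter table, with 13 promoters in all. Beyond those printed, the second Rxra promoter held 2 half-sites and the first Aldh1a1 promoter 1 AP-1 match. The Bco1 promoter also held 1 TTTATG match on the reverse strand, at -236 to -231, which is not in capitals. A match is a description of letters and not a site of binding.

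The libraries held 12374232 to 14236985 counts, with a median of 57 to 66 counts per peak, and the 97 peaks took 0.0963% to 0.112% of them. The spread between the 2 libraries of a group exceeded that of counting alone (ratio of chi-square to its degrees of freedom 1.12 for AA, 1.56 for PGE2 and 1.10 for Vehicle). Peaks stood at all 6 epithelial marker genes and at 9 of 10 absorptive enterocyte markers (Lct had none). The summed epithelial signal was 1715 and 1722 CPM with AA, 1623 and 1627 CPM with PGE2 and 1645 and 1673 CPM with Vehicle. The summed enterocyte signal was 447 and 443 CPM with AA, 399 and 399.7 CPM with PGE2 and 464 and 487 CPM with Vehicle, lowest with PGE2. Of 43 tested enterocyte peaks, 6 were called higher and 8 lower with AA than with Vehicle (32.6%, against 30.5% of all tested peaks). With PGE2, 1 was called higher and 13 lower than with Vehicle (32.6%, against 24.9% of all). With AA against PGE2, 7 were called higher and 1 lower (18.6%, against 9.95% of all). The first share was thus near that of all peaks. Stromal markers summed to 86.7 to 88.0 CPM with AA, 88.8 to 91.2 with PGE2 and 94.1 to 95.7 with Vehicle, and none of their genes had a peak within 1 kb of an end. Immune markers summed to 98.6 to 102, 98.6 to 107 and 96.1 to 96.8 CPM in that order of groups, and endothelial markers to 126 to 135, 124 to 128 and 140.2 to 145 CPM. Peaks within 1 kb of an end stood at the immune markers Cd68 and Itgam (23.3 and 16.7 CPM, mean of 6 libraries). Among the endothelial markers only Kdr had one (3.32 CPM). Markers with no peak included Col1a2, Col3a1 and Cd79a. The part of these levels in the results was not tested. In bulk libraries, fewer cells of a type and less accessible DNA per cell cannot be told apart.

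All 10 Isx peaks had more signal with AA than with Vehicle, Lrat had less signal with either treatment than with Vehicle, and Bco1, Rbp2 and Aldh1a1 had more summed signal with AA than with PGE2. A peak was called at a Benjamini-Hochberg adjusted p under 0.05 in edgeR's quasi-likelihood test over all 89347 tested peaks. Between AA and Vehicle, 12 of the 86 peaks of the 8 genes other than Isx were called higher (16.7% of all tested peaks were) and 16 lower (13.8% of all), together 32.6% against 30.5% of all. Between PGE2 and Vehicle, 10 of 96 were called higher (14.3% of all) and 21 lower (10.6% of all), together 32.3% against 24.9% of all. Between AA and PGE2, 16 of 96 were called higher (5.07% of all) and 2 lower (4.88% of all), together 18.8% against 9.95% of all. Without Isx, that last count was 10 higher and 2 lower of 86 peaks (14.0%). The share between AA and Vehicle was thus near that of all peaks. The AA and PGE2 contrasts with Vehicle share the Vehicle libraries, and the contrast between treatments shares its libraries with both.

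DESeq2 made fewer calls, both among these peaks and among all. Between AA and Vehicle it called 9 of the 86 peaks without Isx (10.5%, against 10.2% of all peaks). Between PGE2 and Vehicle it called 6 of 96 (6.25%, against 8.25% of all), so the higher share that edgeR gave there was not seen. Between AA and PGE2 it called 6 of 96 (6.25%, against 0.633% of all), but 1 of 86 (1.16%) without Isx. Of the calls at peaks that lie within 1 kb of a gene end, are the strongest of their gene or have the smallest p, DESeq2 kept 7 of 17 between AA and Vehicle, 4 of 19 between PGE2 and Vehicle and 3 of 13 between AA and PGE2, with no adjusted p for 1 of the 19 and 3 of the 13.

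Those that DESeq2 kept in the contrasts with Vehicle were, with AA, the 2 inner Scarb1 peaks and the one 24486 bp from its left-hand end, the Lrat start, the first Rarb peak, the first Rxra peak and the inner Aldh1a1 peak described below. With PGE2 they were the same outer Scarb1 peak, the Lrat start and the first 2 Rxra peaks described. In the contrast of the treatments they were both broad Isx peaks and the strongest Rbp2 peak.

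Leaving out 1 library gave 13 of 86 calls between AA and Vehicle without AA replicate 2 (15.1%, against 20.8% of all peaks in that fit) or without Vehicle replicate 1 (15.1%, against 20.2%). Between PGE2 and Vehicle it gave 19 of 96 without PGE2 replicate 1 (19.8%, against 21.6%) or without Vehicle replicate 2 (19.8%, against 15.1%) and 20 without Vehicle replicate 1 (20.8%, against 15.8%). For AA against PGE2, fewer of the genes' peaks and fewer of all peaks were called without AA replicate 1 or without AA replicate 2. The median log2 change of the 96 peaks was 0.04 and 0.06 in these fits, against 0.06 with all libraries. Outside Isx, the share called was above that of all peaks without AA replicate 1 and near it without AA replicate 2.

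**Figure D1:**
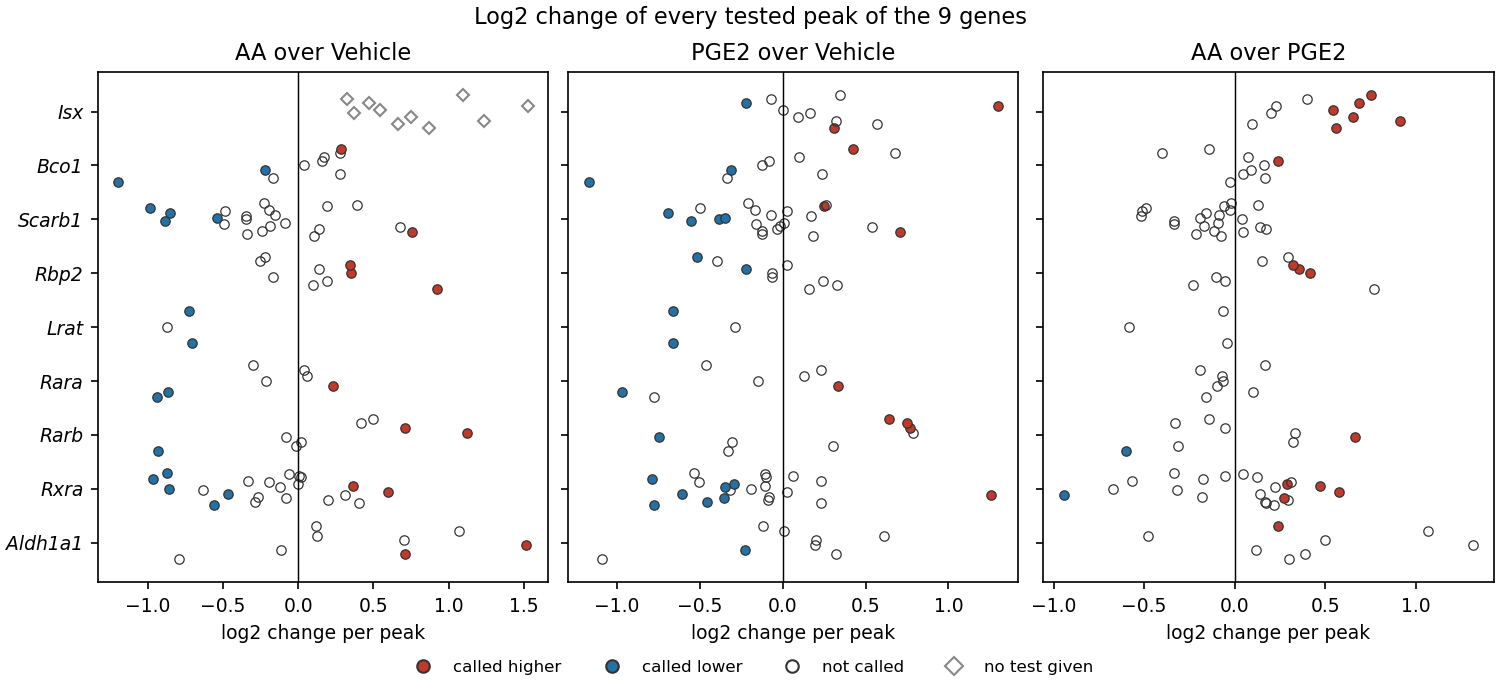
Log2 change of each of the 96 tested peaks of the 9 genes, with AA over Vehicle on the left, PGE2 over Vehicle in the middle and AA over PGE2 on the right; each point is 1 peak, filled where called (red higher, blue lower), and the open diamonds of Isx in the left panel carry no test. All 10 Isx peaks lie above 0 in the left and right panels, and all 3 Lrat peaks below 0 in every panel.

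Isx had its highest mean signal with AA at all 10 peaks, and most of its signal lay over the start and in a stretch beyond the far end. The peak over its start (chr8:74871583-74873621) had 64.8 and 63.7 CPM in the AA libraries, 43.8 and 43.6 in the PGE2 libraries and 34.9 and 35.4 in the Vehicle libraries. The groups did not overlap, and PGE2 lay between AA and Vehicle. With PGE2 this peak was 1.24-fold higher than with Vehicle (log2 0.31, SE 0.07, edgeR quasi-likelihood, Benjamini-Hochberg adjusted p = 0.000539). With AA it was 1.47-fold higher than with PGE2 (log2 0.56, SE 0.06, adjusted p = 2.70e-07 in the same edgeR test). DESeq2 gave adjusted p = 0.0772 for the PGE2 difference. The AA and Vehicle values of this peak chose Isx, so none of these p-values is independent of that choice.

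The second broad Isx peak lay 48268 bp downstream of the start and 27936 bp beyond the far end of the gene (chr8:74920719-74922164), and it was ordered differently. It had 38.7 and 42.3 CPM with AA, 25.0 and 25.2 with PGE2 and 28.4 and 30.04 with Vehicle, so PGE2 lay lowest. With AA it was 1.61-fold higher than with PGE2 (log2 0.69, SE 0.08, edgeR adjusted p = 2.93e-07). With PGE2 it was lower than with Vehicle by the edgeR test (log2 -0.22, SE 0.08, adjusted p = 0.0495). That call was lost when any of the 6 libraries was left out, with log2 changes of -0.27 to -0.18 and adjusted p of 0.0536 (without AA replicate 1) to 0.285 (without Vehicle replicate 2).

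Of the 10 Isx peaks 1 lay inside the gene and the rest outside. With AA the log2 change against Vehicle was above 0 at all 10 (0.33 to 1.53, median 0.71, against a median of -0.02 over all tested peaks). The AA and Vehicle libraries did not overlap at 9 of the 10, and at 60 of the 86 tested peaks of the other 8 genes. The share over all tested peaks was not counted, so these counts cannot be called high or low. The Isx values are a description, since the contrast chose the gene. With PGE2 against Vehicle, 2 peaks were called higher and 1 lower of 10, with a median of 0.24. With AA against PGE2, 6 of 10 were called, all higher, with a median of 0.55 and a range of 0.10 to 0.91. Both tested contrasts share libraries with the one that singled Isx out, PGE2 over Vehicle its Vehicle libraries and AA over PGE2 its AA libraries. The p-values of Isx, for single peaks and for their sum, are therefore not independent of the choice of the gene. The peak with 14.9 ± 0.578 CPM with AA, 7.94 ± 0.101 with PGE2 and 6.34 ± 0.0167 with Vehicle (mean ± SD, n = 2; chr8:74896061-74896910), which was picked after its values were seen, had the largest difference between AA and PGE2 among them (log2 0.91, SE 0.12, edgeR adjusted p = 4.53e-06).

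**Figure D2:**
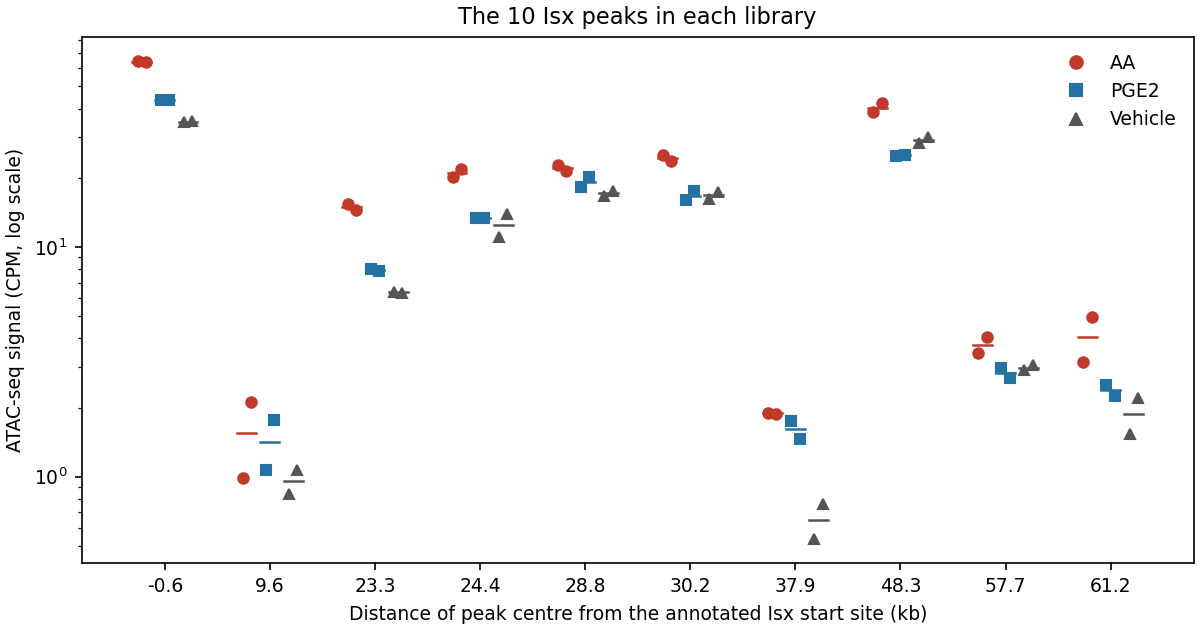
ATAC-seq signal in CPM (log scale) of the 10 Isx peaks in each library, in order of the distance of the peak's centre from the annotated start site in kb; points are single libraries and short lines the mean of 2. AA lies above Vehicle in both libraries at 9 of the 10 peaks, and PGE2 lies between them at the start but lowest at the peak 48268 bp away.

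Summed over its 10 peaks, Isx had 30.4 and 30.8 CPM per kb of peak with AA, 20.2 and 20.2 with PGE2 and 18.7 and 20.0 with Vehicle. PGE2 and Vehicle gave a difference that did not pass on this sum (log2 0.06, SE 0.04, edgeR adjusted p = 0.274, 95% interval -0.03 to 0.14), whereas AA was higher than PGE2 (log2 0.60, SE 0.04, adjusted p = 6.50e-08). Among 9512 protein-coding genes with at least 3 peaks, the genes whose summed log2 CPM over the 6 libraries ran closest to that of Isx were Impg2, Htr5a, Pla2g2e, 4921539E11Rik and Tas2r144, with root mean square distances of 0.0625 to 0.0700 log2 units. Pla2g2e, a secreted phospholipase A2, had 47.1 and 45.7 CPM with AA, 32.3 and 32.5 with PGE2 and 27.6 and 28.4 with Vehicle.

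Bco1 encodes the carotene-cleaving enzyme that ISX represses. Its start peak (chr8:117095558-117096102), which holds the DR1 printed above, was weak and did not pass in any comparison. It had 6.61 and 5.63 CPM with AA, 5.11 and 5.86 with PGE2 and 8.11 and 5.72 with Vehicle, so the groups overlapped. The 95% interval of its log2 change was -0.50 to 0.17 for AA over Vehicle, -0.68 to 0.01 for PGE2 over Vehicle and -0.19 to 0.52 for AA over PGE2. Without Vehicle replicate 2 the PGE2 difference was -0.56 with edgeR adjusted p = 0.0402.

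Most Bco1 signal lay in the second part of the gene. The strongest peak (chr8:117115305-117116908) had 68.1 and 62.1 CPM with AA, 58.1 and 58.4 with PGE2 and 60.8 and 66.3 with Vehicle, and was not called. A peak further in (chr8:117121123-117122013) had 49.4 and 44.6 CPM with AA, 39.7 and 40.2 with PGE2 and 42.5 and 42.1 with Vehicle. There AA was higher than PGE2 (log2 0.24, SE 0.07, edgeR adjusted p = 0.0218), a call lost without AA replicate 1 (0.17, adjusted p = 0.315).

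At 3 other Bco1 peaks both treatments were called on the same side of Vehicle, 2 of them stronger and 1 faint. At chr8:117111729-117112518, inside the gene, signal was 27.4 and 27.1 CPM with AA, 24.8 and 26.4 with PGE2 and 31.9 and 31.6 with Vehicle, lower than Vehicle with AA (log2 -0.22, edgeR adjusted p = 0.0355) and with PGE2 (-0.31, adjusted p = 0.00405). At chr8:117136909-117137943, 3706 bp past the far end, it was 17.2 and 16.5 CPM with AA, 18.8 and 18.5 with PGE2 and 14.0 and 13.7 with Vehicle, higher with AA (0.29, adjusted p = 0.0349) and with PGE2 (0.43, adjusted p = 0.00174). Both AA calls were lost without either AA library or either Vehicle library, with log2 changes of -0.23 to -0.21 at the first peak (adjusted p 0.126 to 0.161) and of 0.26 to 0.31 at the second (0.0824 to 0.171). In all, 1 of the 9 Bco1 peaks was called higher and 2 lower with AA than with Vehicle, 1 higher and 2 lower with PGE2 than with Vehicle, and 1 higher with AA than with PGE2. The faint peak at the far end of the gene (chr8:117133884-117134155) passed in no comparison, with means of 1.87 CPM with AA, 2.45 with PGE2 and 1.53 with Vehicle.

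Scarb1 encodes the receptor that takes up carotenoids and other lipids and is the other target of ISX. At several inner peaks its signal was lower with either treatment than with Vehicle. A peak at chr5:125283739-125284447 had 8.72 and 7.58 CPM with AA, 10.4 and 10.3 with PGE2 and 15.2 and 15.1 with Vehicle. It was lower than Vehicle with AA (log2 -0.88, SE 0.12, edgeR adjusted p = 1.82e-07) and with PGE2 (-0.55, SE 0.12, adjusted p = 0.000339). A second inner peak (chr5:125291074-125292066) had 23.4 and 23.2 CPM with AA, 26.8 and 26.4 with PGE2 and 32.4 and 35.1 with Vehicle. It too was lower with AA (-0.54, adjusted p = 2.09e-06) and with PGE2 (-0.35, adjusted p = 0.00128; -0.29 and 0.0604 without Vehicle replicate 2). These groups did not overlap, and AA was lowest at both.

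In the other direction, a peak 24486 bp from the left-hand end of Scarb1 (chr5:125252124-125253079) had 13.6 and 11.9 CPM with AA, 13.2 and 11.6 with PGE2 and 7.04 and 8.16 with Vehicle. It was higher than Vehicle with AA (1.69-fold, log2 0.75, edgeR adjusted p = 1.48e-05) and with PGE2 (1.63-fold, log2 0.71, adjusted p = 6.39e-05). The peak at the right-hand end of the gene (chr5:125339896-125341373) had 25.5 and 27.8 CPM with AA, 28.5 and 26.8 with PGE2 and 24.3 and 22.3 with Vehicle. It was called higher with PGE2 (0.25, adjusted p = 0.0337) and not with AA (0.19, adjusted p = 0.101), and the 2 treatments overlapped. The PGE2 call did not hold without PGE2 replicate 1 (0.20, 0.149), Vehicle replicate 1 (0.30, 0.0675) or Vehicle replicate 2 (0.19, 0.275). Of 21 Scarb1 peaks, 1 was called higher and 4 lower with AA than with Vehicle, 2 higher and 4 lower with PGE2 than with Vehicle, and 0 between AA and PGE2 by edgeR or DESeq2. At an unadjusted p under 0.05, edgeR counted 2 of 21 between AA and PGE2, both lower with AA, and DESeq2 counted 0.

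Rbp2 encodes the retinol-binding protein of enterocytes, and 3 of its 9 peaks were called higher with AA than with PGE2. The start peak, which holds the half-site above (chr9:98490256-98490558), had 10.8 and 10.03 CPM with AA, 7.93 and 7.71 with PGE2 and 7.04 and 9.30 with Vehicle. With AA it was 1.33-fold higher than with PGE2 (log2 0.41, SE 0.14, edgeR adjusted p = 0.0465) and 1.27-fold higher than with Vehicle (0.35, adjusted p = 0.0464). Both calls were marginal: the first was lost without AA replicate 1 (0.37, adjusted p = 0.267) or 2 (0.46, 0.108), PGE2 replicate 1 (0.43, 0.0752) or 2 (0.40, 0.139) or Vehicle replicate 2 (0.41, 0.0508). The second was lost without AA replicate 1 (0.30, 0.228) or 2 (0.40, 0.0837) or Vehicle replicate 1 (0.17, 0.498).

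The strongest Rbp2 peak lay 2176 bp inside the gene (chr9:98491565-98493861), with 82.5 and 83.8 CPM with AA, 65.7 and 64.1 with PGE2 and 71.9 and 79.3 with Vehicle. With AA it was higher than with PGE2 (log2 0.36, SE 0.06, edgeR adjusted p = 5.38e-05), and DESeq2 gave adjusted p = 0.0414. With PGE2 it was lower than with Vehicle (-0.22, SE 0.06, adjusted p = 0.00394; 0.193 in DESeq2; -0.15 and 0.196 without Vehicle replicate 2). AA and Vehicle did not overlap but differed by 0.14 (SE 0.06, adjusted p = 0.0604; 0.21 and 0.0400 without Vehicle replicate 2). A peak 8091 bp inside the gene (chr9:98498079-98499176) had 25.0 and 29.3 CPM with AA, 19.1 and 24.3 with PGE2 and 20.4 and 22.1 with Vehicle. It was higher with AA than with Vehicle (0.35, edgeR adjusted p = 0.00962), and this was lost without AA replicate 2 (0.23, 0.194) and without Vehicle replicate 1 (0.30, 0.121). It was also called higher with AA than with PGE2 (0.32, adjusted p = 0.0415) although those libraries lay close, and the call was lost without AA replicate 2 (0.20, 0.401), PGE2 replicate 1 (0.15, 0.421) or Vehicle replicate 1 (0.33, 0.0548) or 2 (0.32, 0.0813). A peak just upstream of the start (chr9:98489653-98489999) passed in no comparison, with means of 8.18 CPM with AA, 8.77 with PGE2 and 9.16 with Vehicle. Of 9 Rbp2 peaks, 3 were called higher with AA than with Vehicle, 2 lower with PGE2 than with Vehicle and 3 higher with AA than with PGE2, with no other call.

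Lrat encodes the acyltransferase that esterifies retinol, and its signal was lower with both treatments. Its start peak (chr3:82902779-82904626) had 37.4 and 38.6 CPM with AA, 39.7 and 38.6 with PGE2 and 64.0 and 60.1 with Vehicle. All treated libraries lay below both Vehicle libraries. With AA signal fell by 0.71 on the log2 scale, to 0.612 of Vehicle (SE 0.07, edgeR adjusted p = 1.88e-11), and with PGE2 by 0.66, to 0.631 of Vehicle (SE 0.07, adjusted p = 2.72e-10). AA and PGE2 differed by -0.05 (SE 0.07, adjusted p = 0.758), with a 95% interval of -0.19 to 0.10. These falls also passed DESeq2 (adjusted p = 6.82e-07 with AA and 3.74e-06 with PGE2).

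An upstream Lrat peak, 42855 bp before the start (chr3:82946365-82947293), was lower too. It had 9.28 and 11.9 CPM with AA, 10.8 and 11.2 with PGE2 and 16.5 and 18.4 with Vehicle. The log2 change was -0.73 with AA (SE 0.12, edgeR adjusted p = 4.38e-06) and -0.66 with PGE2 (SE 0.12, adjusted p = 2.78e-05). The third peak was faint, with 1.05 and 0.489 CPM with AA, 1.37 and 1.00 with PGE2 and 1.84 and 1.07 with Vehicle, and passed in no comparison. So 2 of 3 Lrat peaks were called lower in each contrast with Vehicle. Between AA and PGE2 the count was 0 of 3 by edgeR and by DESeq2, adjusted or at an unadjusted p under 0.05. All 3 peaks are given here, whatever their values.

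**Figure D3:**
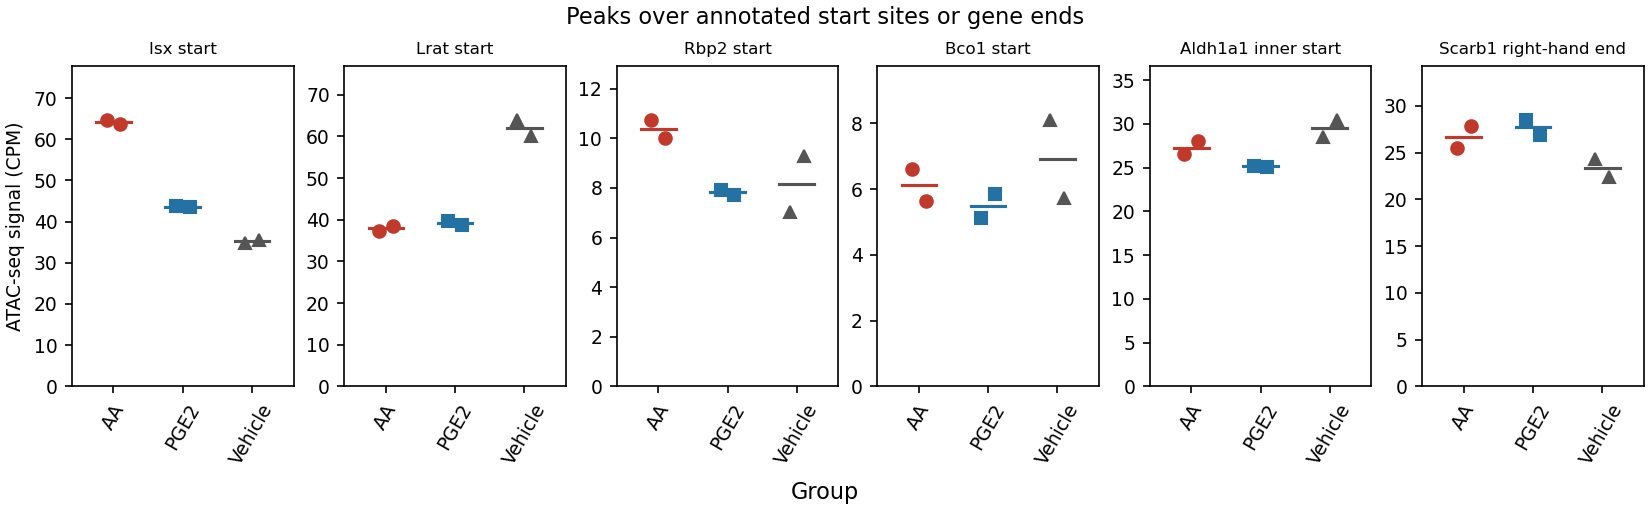
ATAC-seq signal in CPM of the peak nearest to an annotated start site of Isx, Lrat, Rbp2, Bco1 and Aldh1a1 (its inner start site) and of the right-hand end of Scarb1, whose strand was not given; points are single libraries, lines the mean of 2, and each axis starts at 0. At Isx both AA libraries lie above all others, at Lrat the AA libraries with 37.4 and 38.6 CPM lie with PGE2 below the 64.0 and 60.1 CPM of Vehicle, and at Bco1 the groups overlap.

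Aldh1a1 encodes a dehydrogenase that makes retinoic acid and has 2 annotated start sites. The peak at the outer start (chr19:20492005-20492203) was faint, with 0.703 and 1.22 CPM with AA, 0.686 and 0.848 with PGE2 and 1.68 and 1.601 with Vehicle. It was below Vehicle in every treated library, but its differences did not pass (log2 -0.79, edgeR adjusted p = 0.133 with AA; -1.09, 0.0508 with PGE2; -1.09, 0.0484 for PGE2 without AA replicate 1). The peak over the inner start (chr19:20601117-20602328) had 26.5 and 28.0 CPM with AA, 25.2 and 25.1 with PGE2 and 28.5 and 30.5 with Vehicle. It was called lower with PGE2 than with Vehicle (-0.23, SE 0.09, adjusted p = 0.0418), and that call was lost without any of 5 libraries, Vehicle replicate 2 giving the largest p (-0.18, 0.289) and AA replicate 2 the smallest (-0.23, 0.0518).

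The clearest Aldh1a1 change lay 37821 bp inside the gene (chr19:20529914-20530893). That peak had 10.4 and 10.6 CPM with AA, 7.62 and 8.40 with PGE2 and 6.89 and 5.95 with Vehicle, with no overlap between any groups. With AA it was 1.64-fold higher than with Vehicle (log2 0.71, SE 0.14, edgeR adjusted p = 8.66e-05). The strongest peak, 10608 bp past the far end (chr19:20653181-20654960), had 53.4 and 51.2 CPM with AA, 45.7 and 43.2 with PGE2 and 49.0 and 47.4 with Vehicle. It was higher with AA than with PGE2 (0.24, SE 0.07, adjusted p = 0.0151), a call lost without AA replicate 1 (0.21, 0.152) and without PGE2 replicate 2 (0.20, 0.0965). Of 8 tested Aldh1a1 peaks, 2 were called higher with AA than with Vehicle, 1 lower with PGE2 than with Vehicle and 1 higher with AA than with PGE2, with no other call.

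Rxra encodes the common partner of the retinoic acid receptors, and its summed signal was lower than Vehicle with both treatments and lower with PGE2 than with AA. Inside the gene, a peak at chr2:27758231-27759190 had 5.48 and 5.14 CPM with AA, 6.18 and 5.86 with PGE2 and 10.2 and 10.6 with Vehicle. It was lower than Vehicle with AA (log2 -0.96, SE 0.14, edgeR adjusted p = 9.56e-07) and with PGE2 (-0.79, SE 0.14, adjusted p = 3.28e-05). The strongest peak, 4333 bp before the gene (chr2:27671571-27672653), had 40.6 and 39.6 CPM with AA, 33.6 and 32.8 with PGE2 and 43.5 and 41.4 with Vehicle. There PGE2 alone was called lower than Vehicle (-0.35, SE 0.07, adjusted p = 0.000219, against -0.08 and 0.413 with AA). AA was higher than PGE2 there (0.27, adjusted p = 0.0111), a call lost without AA replicate 1 (0.27, 0.102) or 2 (0.29, 0.0547).

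The gene-end peak of Rxra (chr2:27675984-27676904) was not called in any comparison, with means of 13.5, 15.4 and 16.3 CPM with AA, PGE2 and Vehicle; AA over Vehicle was -0.26 (edgeR adjusted p = 0.0579) and passed without PGE2 replicate 1 (0.0415) or 2 (0.0440). Higher signal with AA was called at chr2:27686013-27686705, with 8.44 and 9.21 CPM with AA, 5.64 and 6.17 with PGE2 and 5.28 and 6.33 with Vehicle (0.60 over Vehicle, adjusted p = 0.00172; 0.48 and 0.0555 without Vehicle replicate 1). It was called also at chr2:27715198-27715676 (0.36 over Vehicle, adjusted p = 0.0105; 0.31 and 0.103 without AA replicate 2, 0.28 and 0.159 without Vehicle replicate 2). Against PGE2 these were 0.58 (adjusted p = 0.00887; 0.51 and 0.0961 without AA replicate 2, 0.51 and 0.0509 without PGE2 replicate 1) and 0.47 (0.00444; 0.42 and 0.0722 without AA replicate 2). A faint peak beside the start site (chr2:27677611-27677932) had 1.69 and 2.04 CPM with AA, 2.52 and 4.63 with PGE2 and 1.68 and 1.30 with Vehicle, and its calls for PGE2 over Vehicle (1.25, adjusted p = 0.00103) and for AA over PGE2 (-0.94, 0.0215) were lost without PGE2 replicate 2 (0.75, 0.144 and -0.44, 0.544). The second was lost also without AA replicate 1 (-0.79, 0.229) or 2 (-1.08, 0.0770). Of 21 Rxra peaks, 2 were called higher and 5 lower with AA than with Vehicle, 1 higher and 7 lower with PGE2 than with Vehicle, and 4 higher and 1 lower with AA than with PGE2.

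Rara and Rarb encode receptors of retinoic acid, and their peaks were called in both directions. The strongest Rara peak (chr11:98959481-98961169) had 37.5 and 38.5 CPM with AA, 40.8 and 40.5 with PGE2 and 29.6 and 34.9 with Vehicle. It was higher than Vehicle with AA (log2 0.23, SE 0.08, edgeR adjusted p = 0.0182) and with PGE2 (0.33, SE 0.08, adjusted p = 0.000992). The AA call was lost without AA replicate 1 (0.26, 0.0516) or 2 (0.22, 0.110) and both calls without Vehicle replicate 1 (0.13, 0.373 with AA; 0.21, 0.126 with PGE2).

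At the left-hand end of Rara, 2 faint peaks were lower. At chr11:98928323-98928594 signal was 1.62 and 1.06 CPM with AA, 1.14 and 1.39 with PGE2 and 2.75 and 2.21 with Vehicle (log2 -0.87 with AA, edgeR adjusted p = 0.0294; -0.97 with PGE2, 0.0201). At chr11:98927630-98927965 it was 1.34 and 0.897 CPM with AA, 1.45 and 1.08 with PGE2 and 2.14 and 2.21 with Vehicle (-0.94 with AA, 0.0300; -0.78 with PGE2, 0.0796). The first peak's AA call was lost without AA replicate 2 (-0.61, 0.235) and Vehicle replicate 1 (-0.69, 0.222), and its PGE2 call without PGE2 replicate 1 (-0.83, 0.116) and Vehicle replicate 1 (-0.81, 0.177). The second peak's AA call was lost without AA replicate 2 (-0.70, 0.214) and Vehicle replicate 1 (-0.96, 0.0994) or 2 (-0.92, 0.119). The peak past the other end (chr11:98975137-98975761) passed in no comparison, with means of 3.65, 3.30 and 4.54 CPM with AA, PGE2 and Vehicle. Of 7 Rara peaks, 1 was called higher and 2 lower with AA than with Vehicle, 1 higher and 1 lower with PGE2 than with Vehicle, and 0 between AA and PGE2 by edgeR or DESeq2, adjusted or at an unadjusted p under 0.05, where the log2 changes ran from -0.19 to 0.16.

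At Rarb, a gene of 651493 bp, peaks near the left-hand end gave lower calls and peaks near the right-hand end higher ones against Vehicle. Near the left-hand end, which is the end of transcription, a peak at chr14:16431996-16432518 had 3.94 and 4.16 CPM with AA, 6.63 and 5.63 with PGE2 and 7.80 and 7.62 with Vehicle. With AA it was lower than with Vehicle (log2 -0.93, SE 0.17, edgeR adjusted p = 2.21e-05) and than with PGE2 (-0.60, SE 0.18, adjusted p = 0.0211; -0.55 and 0.174 without AA replicate 1, -0.64 and 0.0805 without AA replicate 2, -0.48 and 0.181 without PGE2 replicate 1). A peak at chr14:16448450-16449108 had 6.82 and 6.52 CPM with AA, 4.19 and 4.24 with PGE2 and 6.66 and 7.47 with Vehicle. PGE2 stood apart there, lower than Vehicle (-0.74, adjusted p = 0.000731), with AA higher than PGE2 (0.66, adjusted p = 0.00790; 0.64 and 0.0853 without AA replicate 1). The strongest of the 8 Rarb peaks within 50 kb of an end (chr14:16447518-16448257) was not called, with means of 14.2, 11.4 and 14.0 CPM with AA, PGE2 and Vehicle, and its PGE2 difference of -0.30 had adjusted p = 0.0511, which became 0.0429 without PGE2 replicate 2 (-0.38) and 0.0452 without Vehicle replicate 1 (-0.40).

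Near the right-hand end of Rarb, the log2 change over Vehicle was above 0 at all 4 peaks with both treatments. A peak at chr14:17083955-17084505 had 2.95 and 3.34 CPM with AA, 3.20 and 3.32 with PGE2 and 1.76 and 2.06 with Vehicle. It was higher with AA (log2 0.71, edgeR adjusted p = 0.0273) and with PGE2 (0.77, adjusted p = 0.0197). Both calls were lost when 1 library of either group compared was left out, with 0.61 to 0.83 for AA (adjusted p 0.0549 to 0.163) and 0.65 to 0.89 for PGE2 (0.0508 to 0.149). A peak at chr14:17087850-17088151 had 3.38 and 5.22 CPM with AA, 5.57 and 5.09 with PGE2 and 3.14 and 3.20 with Vehicle (0.75 with PGE2, adjusted p = 0.00495; 0.73 and 0.0524 without Vehicle replicate 1; 0.42 with AA, 0.140; 0.72 and 0.0261 without AA replicate 1). Of 8 Rarb peaks, 2 were called higher and 1 lower with AA than with Vehicle, 3 higher and 1 lower with PGE2 than with Vehicle, and 1 each way between AA and PGE2.

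Some peaks inside these genes fell outside the distance rule. They were 22 Rarb peaks more than 50 kb from either end, 4 Aldh1a1 peaks for the same reason and 7 Rara peaks nearer to the gene Gm46294. Over all tested peaks 30.5% were called between AA and Vehicle, 24.9% between PGE2 and Vehicle and 9.95% between AA and PGE2. Of the 22 Rarb peaks, 7 were called higher and 2 lower with AA than with Vehicle. With PGE2 3 were called higher and 1 lower than with Vehicle, and with AA 1 higher and 2 lower than with PGE2. The log2 change of the Rarb peaks with AA over Vehicle ran from -1.30 to 1.68. One of them, picked after its values were seen (chr14:16755262-16756630), had 27.9 and 28.7 CPM with AA, 23.1 and 24.0 with PGE2 and 16.2 and 15.6 with Vehicle, higher than Vehicle with AA (log2 0.83, SE 0.09, edgeR adjusted p = 1.58e-09) and with PGE2 (0.57, SE 0.10, adjusted p = 1.24e-05). Of the 7 Rara peaks, 2 were called higher with AA and 1 with PGE2 than with Vehicle, and of the 4 Aldh1a1 peaks 1 higher with AA and 1 lower with PGE2, with no other call. The peak over the Rarb start with the DR5 printed above (chr14:16574973-16575924) was also among the 22, with 5.48 and 5.46 CPM with AA, 5.72 and 4.93 with PGE2 and 6.50 and 5.72 with Vehicle, and passed in no comparison. The peak over the main Rara start sites (chr11:98937232-98938286) had 22.7 and 26.3 CPM with AA, 27.9 and 30.8 with PGE2 and 19.6 and 21.5 with Vehicle. It was higher than Vehicle with AA (log2 0.25, SE 0.09, edgeR adjusted p = 0.0416) and with PGE2 (0.51, SE 0.09, adjusted p = 3.53e-05); the Rarb and Rara start peaks were singled out for their position over start sites.

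Summed over its peaks, each gene gives 1 value per library, set per kb of peak so that genes can be compared in level over the peaks taken. The sums leave out 22 of the 27 peaks inside Rarb, 7 of the 12 inside Rara and 4 of the 11 inside Aldh1a1. The levels of these genes are therefore not those of the whole gene. With Vehicle, Bco1 had the highest signal (32.9 ± 0.556 CPM per kb), then Lrat (30.2 ± 0.670), Rbp2 (24.2 ± 2.20), Aldh1a1 (19.9 ± 0.0205), Isx (19.4 ± 0.953), Rara (19.3 ± 0.0858), Rxra (17.0 ± 0.0592), Scarb1 (15.9 ± 0.199) and Rarb (11.96 ± 0.997; mean ± SD, n = 2). The Isx libraries, at 18.7 and 20.0, spanned those of Aldh1a1 (19.9 and 19.9) and Rara (19.2 and 19.4), which did not overlap each other. With AA, Isx at 30.6 ± 0.339 stood second to Bco1 at 33.6 ± 1.47, and Lrat at 18.1 ± 0.742 lay below Rara at 19.4 ± 0.570.

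Tested over 16784 genes, the sums of 3 of the 8 genes other than Isx were called with AA against Vehicle (32.2% of all genes were called), all lower, and 6 of 9 with PGE2 against Vehicle (38.5% of all), all lower. Between AA and PGE2, 5 of 9 were called (17.6% of all), all higher with AA, and 4 of 8 without Isx. The calls of all genes were not split by direction. Their median log2 change was 0.0007 for AA over Vehicle, -0.007 for PGE2 over Vehicle and -0.01 for AA over PGE2. Lrat was lower with AA (log2 -0.74, SE 0.06, edgeR adjusted p = 6.69e-08) and with PGE2 (-0.72, SE 0.06, adjusted p = 1.94e-07), and AA and PGE2 differed by -0.02 (95% interval -0.15 to 0.11). Scarb1 was lower with AA (-0.23, adjusted p = 0.000272) and with PGE2 (-0.16, adjusted p = 0.00459; 0.0542 in DESeq2). Rxra was lower with AA (-0.14, adjusted p = 0.00316; 0.0747 in DESeq2) and with PGE2 (-0.35, adjusted p = 6.82e-07), and higher with AA than with PGE2 (0.21, adjusted p = 0.000412).

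The mean sums of Rbp2, Aldh1a1 and Bco1 were highest with AA and lowest with PGE2. At Bco1 the AA and Vehicle libraries overlapped (log2 0.03, edgeR adjusted p = 0.526). The summed epithelial marker signal given above had the same order of means. The enterocyte marker signal was also lowest with PGE2, but highest with Vehicle. The part of either signal in the sums was not tested. For Rbp2 the sums were 26.0 and 27.1 CPM per kb with AA, 21.0 and 20.7 with PGE2 and 22.6 and 25.8 with Vehicle. AA was higher than PGE2 by 0.34 (SE 0.05, edgeR adjusted p = 0.000480) and PGE2 lower than Vehicle (-0.21, adjusted p = 0.00446; -0.12 and 0.111 without Vehicle replicate 2). AA over Vehicle was 0.13 (adjusted p = 0.0552) and passed without PGE2 replicate 1 (0.00386) or 2 (0.00386) or Vehicle replicate 2 (0.23, 0.00703). Aldh1a1 was higher with AA than with PGE2 (0.28, adjusted p = 0.000913) and lower with PGE2 than with Vehicle (-0.18, adjusted p = 0.00686; 0.0502 without Vehicle replicate 1, 0.0536 without 2 and 0.0893 in DESeq2). Bco1 was higher with AA than with PGE2 (0.16, adjusted p = 0.00601; 0.11 and 0.141 without AA replicate 1, 0.0530 in DESeq2) and lower with PGE2 than with Vehicle (-0.13, adjusted p = 0.00983; -0.11 and 0.0924 without Vehicle replicate 2, 0.0953 in DESeq2). Over peaks within 10 kb alone, Bco1's differences were 0.05 for AA over PGE2 (adjusted p = 0.676) and 0.05 for PGE2 over Vehicle (adjusted p = 0.608). Scarb1's fall with PGE2 gave adjusted p = 0.0511 without PGE2 replicate 2 and 0.0588 without Vehicle replicate 2. The sums of Rara and Rarb passed in no comparison, but over its peaks within 10 kb of an end alone, Rara was lower with AA (-0.40, edgeR adjusted p = 0.0324) and with PGE2 (-0.44, 0.0124). That sum held only 4 faint peaks, with means of 1.52 to 4.04 CPM over the 6 libraries. Like the sum over all the Rara peaks taken, it left out the peak over the main Rara start sites. That start peak was called higher than Vehicle with both treatments (0.25 with AA, 0.51 with PGE2). In the fit of sums over peaks within 1 kb of an end, where Scarb1 keeps only its right-hand end peak, it turned to 0.15 with AA and 0.08 with PGE2 (adjusted p = 0.349 and 0.527), beside 0.19 and 0.25 for that peak in the fit over single peaks.

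**Figure D4:**
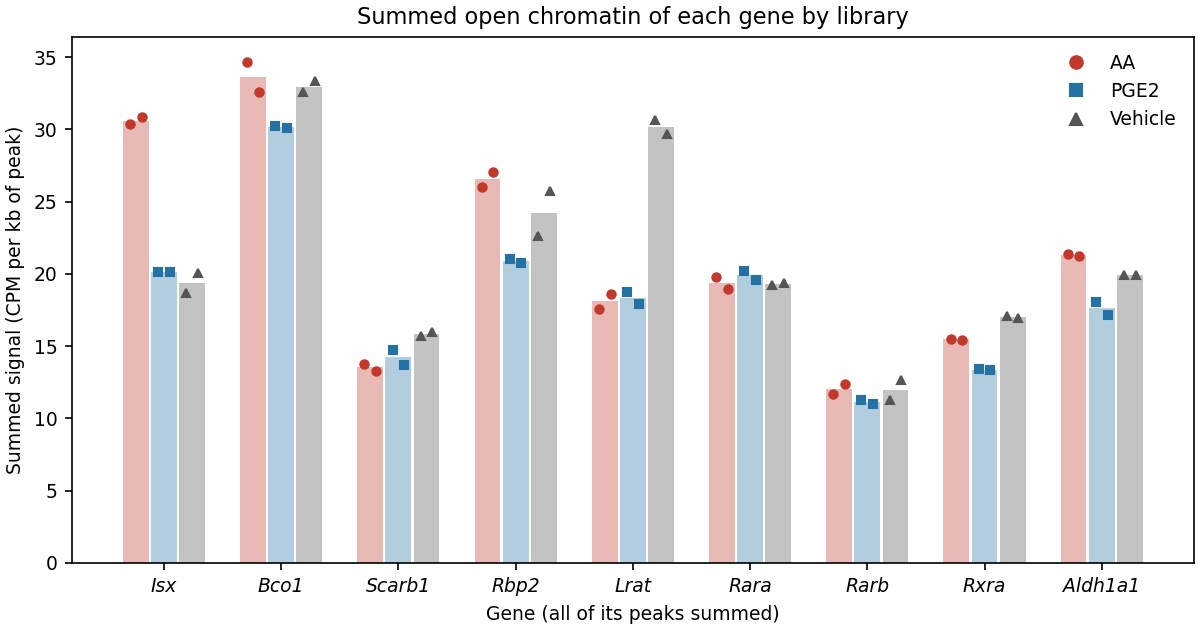
Summed ATAC-seq signal of each gene in CPM per kb of peak, for AA, PGE2 and Vehicle from left to right; points are single libraries and bars the mean of 2, with the axis from 0. Isx stands at 30.6 with AA against 20.2 with PGE2 and 19.4 with Vehicle, and Lrat at 18.1 and 18.4 with the treatments against 30.2 with Vehicle.

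In 33 further retinoid genes, named from pathway knowledge, 145 peaks were tested at 32 genes (Cyp26c1 had none). With AA 21 were called higher and 25 lower than with Vehicle, with PGE2 13 higher and 31 lower, and with AA against PGE2 11 higher and 3 lower, which is 31.7%, 30.3% and 9.66% of the tested peaks. Of all tested peaks 30.5%, 24.9% and 9.95% were called in these comparisons, so the first and last shares were near those of all peaks. Peaks of Rdh10, a retinol dehydrogenase that feeds retinoic acid synthesis, were called higher at 5 of 7 with AA and at 4 of 7 with PGE2 than with Vehicle, with no other call. Dhrs3, which returns retinal to retinol, had 1 higher and 4 lower of 13 with AA, 7 lower with PGE2, and 4 higher with AA than with PGE2. Of 9 Fabp5 peaks, whose protein carries fatty acids and retinoic acid, 4 were called higher with AA and 3 with PGE2.

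Among the retinoid peaks with the smallest p against Vehicle, some were higher with both treatments. A Rdh10 peak (chr1:16171795-16172933) had 67.8 ± 1.25 CPM with AA, 61.2 ± 0.336 with PGE2 and 47.4 ± 0.685 with Vehicle (mean ± SD, n = 2), higher with AA (log2 0.52, edgeR adjusted p = 5.86e-09) and with PGE2 (0.37, adjusted p = 1.01e-05). A Fabp5 peak was 1.07 higher on the log2 scale with PGE2 (edgeR adjusted p = 1.99e-06) and 1.09 with AA (adjusted p = 7.33e-07).

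Among the alcohol dehydrogenase genes, some of whose enzymes oxidise retinol, the peaks with the smallest p fell. An Adh7 peak had 25.0 ± 0.0459 CPM with AA, 23.7 ± 0.0859 with PGE2 and 37.0 ± 2.98 with Vehicle (log2 -0.57 with AA, edgeR adjusted p = 5.88e-07; -0.64 with PGE2, 1.06e-07), and an Adh4 peak fell by 0.75 with PGE2 (adjusted p = 1.74e-07). Between AA and PGE2 the smallest p values belonged to a peak of the fatty acid transporter gene Cd36 (1.11, adjusted p = 0.00443) and to 2 peaks of Dhrs3 (0.72, 0.00203 and 0.38, 0.00139), all higher with AA. DESeq2 called 14, 12 and 0 peaks of these genes in the 3 comparisons (9.66%, 8.28% and 0%, against 10.2%, 8.25% and 0.633% of all peaks), against 46, 44 and 14 with edgeR; between AA and PGE2, DESeq2 counted 13 and edgeR 36 at an unadjusted p under 0.05. Fewer of these peaks were called without AA replicate 1 or Vehicle replicate 2 between AA and Vehicle, and without Vehicle replicate 2 between PGE2 and Vehicle. The same held without AA replicate 1 or 2 between AA and PGE2. Fewer of all peaks were called in those fits too. The list's share stayed near that of all peaks between AA and Vehicle and above it between PGE2 and Vehicle. Between AA and PGE2 it was near that share without AA replicate 1 and below it without AA replicate 2.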

How the data were processed

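The authors deposited raw counts of read pairs per consensus peak, made with featureCounts 1.6.3 per the file headers (reads reduced to their 5′ ends, unstranded, pairs overlapping several peaks counted in each), over 1 merged peak set. Per the submitters' processing notes the build was mm10, and MACS2, BWA, SAMtools, Trim Galore and Picard were used, with settings not stated there. From the counts, edgeR 4.0.16 (TMM scaling, filterByExpr, robust quasi-likelihood test, all 6 libraries in 1 fit) tested 89347 peaks, and counts summed per gene at 16784 genes, with Benjamini-Hochberg adjustment at 0.05. The fit was tested on simulated data. Intervals are 95% and cover the spread between libraries. Peaks were tied to genes with RefSeq GRCm38.p6. The members and lists were chosen with earlier results of these data known. Peaks given in full lie within 1 kb of a gene end, are the gene's strongest, or have the smallest p in each direction; of the wider list, those among the 3 smallest p per comparison, 1 of which is not reported here, and 1 Fabp5 value with AA beside its PGE2 value. Alternatives were other scalings, DESeq2 1.42.0, no filter, only the groups compared, a replicate block, each library left out, and shorter distances.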

Additional observations from a re-analysis of the deposited data

How the results depend on the processing

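Among the single peaks and gene sums reported, 1445 values under an alternative kept their side of the threshold. These include any that changed direction while passing in neither fit. A further 31 passed only under the alternative, and 136 passed only in the reported fit. Another 8 changed direction while passing in at least 1 of the fits. The cause was not tested. The 8 are gene sums over fewer peaks. With peaks within 1 kb of an end, Scarb1 turned to 0.15 with AA and 0.0799 with PGE2 over Vehicle, Rara to -0.62 and -0.83, and Rxra to -0.055 for AA over PGE2. With peaks within 10 kb, Rara turned to -0.40 and -0.44, and Bco1 to 0.0493 with PGE2 over Vehicle. In the order AA over Vehicle, PGE2 over Vehicle, AA over PGE2, calls among the genes' peaks numbered 28 of 86, 31 of 96 and 18 of 96. DESeq2 gave 9, 6 and 6 (10.5%, 6.25% and 6.25%, beside 10.2%, 8.25% and 0.633% of all peaks). Within 10 kb they numbered 15 of 41, 15 of 47 and 11 of 47, and within 1 kb 4 of 11, 4 of 12 and 2 of 12. These 2 settings take fewer peaks from the reported fit. In that fit 30.5%, 24.9% and 9.95% of all tested peaks were called. For the wider retinoid list the calls numbered 46, 44 and 14 of 145 peaks. DESeq2 gave 14, 12 and 0 (between AA and PGE2, 13 at an unadjusted p under 0.05). Within 10 kb the list's calls numbered 23, 25 and 10 of 91 peaks, and within 1 kb 2, 7 and 1 of 27. Of the gene sums, 6 were called with PGE2 over Vehicle, against 3 with DESeq2 and 3 within 1 kb, and 5 with AA over PGE2, against 3 within 10 kb and 1 within 1 kb. Leaving out 1 library gave 13 to 32, 19 to 30 and 9 to 17 peaks of the genes, 28 to 51, 29 to 44 and 4 to 13 of the wider list, and 3 to 4, 2 to 6 and 4 to 5 gene sums; the 2 came without Vehicle replicate 2. Of the named peaks called, 7 of 17, 9 of 19 and 3 of 13 passed whichever library was left out, and 7, 4 and 3 passed in DESeq2. With library totals in place of TMM the genes' peaks split 9 higher and 18 lower, 8 and 24, and 17 and 2, while 15.4% of all peaks were higher and 16.0% lower, 12.9% and 13.6%, and 5.92% and 5.23%. Libraries of the same replicate number did not deviate together (correlation of deviations 0.04, 0.00 and -0.02). Much of each deviation is counting noise (ratio of chi-square to its degrees of freedom 1.10 to 1.56). The correlations therefore cannot tell whether libraries of a number shared a culture or an animal. With the replicate block the counts were 28, 31 and 18 for the genes' peaks, 47, 44 and 15 for the wider list and 4, 6 and 5 for gene sums. With 57 to 66 counts at the median peak, faint peaks carry wide intervals.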
